A study of Mus musculus with 19 samples.

Results

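The genes described here mark the activation of hepatic stellate cells, and they were measured in mouse liver with 2-colour arrays of 19 mice. The 10 genes are Acta2, Pdgfrb, Des, Tgfb1, Ctgf, Lox, Loxl2, Lum, Vim and Lrat. They were chosen by name, with earlier results of these data known. Every probe whose gene symbol was one of these names was taken, which gave 10 probes for 9 genes, of 18788 gene symbols and 23568 probes in the table. Loxl2 had 2 probes, called brighter and dimmer here, the other 8 genes had 1 each, and Des had no probe by that symbol and was not analysed. All 10 probes passed the filter on missing values.

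The study compared livers of mice without 5-lipoxygenase (labelled 5LO KO) with livers of wild-type B6 mice, fed either normal chow or an atherogenic diet rich in cholesterol, cholate and fat. 5-lipoxygenase, encoded by Alox5, is the enzyme that starts leukotriene synthesis. Chow was fed to 5 mice of each genotype, the atherogenic diet to 4 wild types and 5 knockouts, each for 16 weeks, and all mice were 20 weeks old. Each mouse was hybridised in Cy5 against a Cy3 pool of wild-type livers of its own diet, of 5 chow-fed and 4 atherogenic mice. The labels give neither the sex of the mice nor the allele of the knockout. Because the pool shares the diet, the log2 ratio of mouse to pool carries the genotype, and the mouse intensity alone carries the diet. Letters from A to E name the mice within each group and carry no order.

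Stellate cells lie between hepatocytes and the sinusoidal endothelium and store vitamin A as retinyl esters, which lecithin retinol acyltransferase (Lrat) makes. In injured liver they are known to lose these stores and to become contractile, matrix-producing myofibroblasts, driven by transforming growth factor beta (Tgfb1) and by platelet-derived growth factor through its receptor Pdgfrb. Smooth muscle alpha-actin (Acta2) and the intermediate filament proteins vimentin (Vim) and desmin (Des) mark the cells, connective tissue growth factor (Ctgf) is a matricellular target of TGF-beta, lysyl oxidases (Lox, Loxl2) cross-link collagen, and lumican (Lum) is a proteoglycan that binds collagen fibrils. Several of these genes are also expressed outside stellate cells. Vim is expressed by leukocytes and endothelium, Tgfb1 by macrophages, and Acta2 by vascular smooth muscle.

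Averaged over the arrays, the 10 probes of 9 hepatocyte marker genes were each brighter than 55.5% to 99.8% of all probes, with Apoa1 at 99.8% and Alb at 90.1%. Alox5, the deleted gene, was read at mouse intensities of 0.03 to 0.05 in wild type and 0.03 to 0.07 in knockout on chow, and of 0.05 to 0.09 and 0.06 to 0.11 on the atherogenic diet, with 1 knockout value missing. It was thus not lower in the knockouts, and since no source used here says which part of the gene was deleted, this probe does not check the genotype labels. The SD of the log2 ratios over all probes lay between 0.239 and 0.538 on 18 arrays and was 1.01 for chow knockout mouse D. That mouse also stood apart in cell markers, with a summed intensity of hepatocyte markers of 43.5, against 82.8 to 152 in the other chow knockouts and 116 to 173 in chow wild type, and of lymphocyte markers of 34.6, against 6.65 to 8.59 and 5.32 to 7.74. Without it the diet differences in knockout were 1.70 for Vim, 1.42 for Lum and 1.22 for Lox on the log2 scale, and all passed; the part of these cells in the results was not tested. Wild-type chow mouse A correlated at r = 0.25 to 0.59 with the 5 chow knockouts, against -0.07 to 0.35 for the other wild-type chow mice, all against the same pool. Leaving out either mouse changed no call of a member. Deposited intensities of 0.01 or more have 2 decimals, and 55.3% of mouse intensities lay below 0.1, so that ratios of dim probes move in coarse steps. Among the members this touches Lox, read at only 2 levels on chow (0.01 and 0.02), the dimmer Loxl2 probe (0.02 to 0.05), Lrat (0.04 to 0.09) and Tgfb1 (0.07 to 0.14). It also touches the brighter Loxl2 probe (0.07 to 0.13) and, to a lesser degree, Acta2 (0.06 to 0.24).

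Vim, Lum and Lox rose on the atherogenic diet in both genotypes, while Acta2, Tgfb1, Ctgf, Lrat and both Loxl2 probes did not pass the test in either. Vim rose 4.73-fold in wild type and 3.67-fold in knockout, Lum 3.11-fold and 2.97-fold, and Lox 2.79-fold and 2.49-fold. Pdgfrb did not pass in either genotype taken alone and passed, at 1.37-fold, when both were averaged. Diet effects are differences of log2 mouse intensity after loess normalisation within and Aquantile normalisation between arrays, tested with limma and called at a Benjamini-Hochberg adjusted p under 0.05 over 23344 probes. In wild type 3 of the 10 member probes were called, all higher, where 7.16% of all probes were called, 4.62% higher and 2.54% lower. In knockout 3 of 10 were called higher, where 9.61% of all probes were called, 5.23% higher and 4.37% lower. The median difference of the member probes was 0.27 in wild type and 0.44 in knockout, against -0.04 and -0.01 over all probes tested. Since the members were chosen with earlier results of these data known, these shares and medians are a description and not a test. The counts of other gene lists given below by diet are to be read beside the same shares, and are a description as well. These are whole livers, in which more cells of a type and more RNA per cell cannot be told apart.

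**Figure D1:**
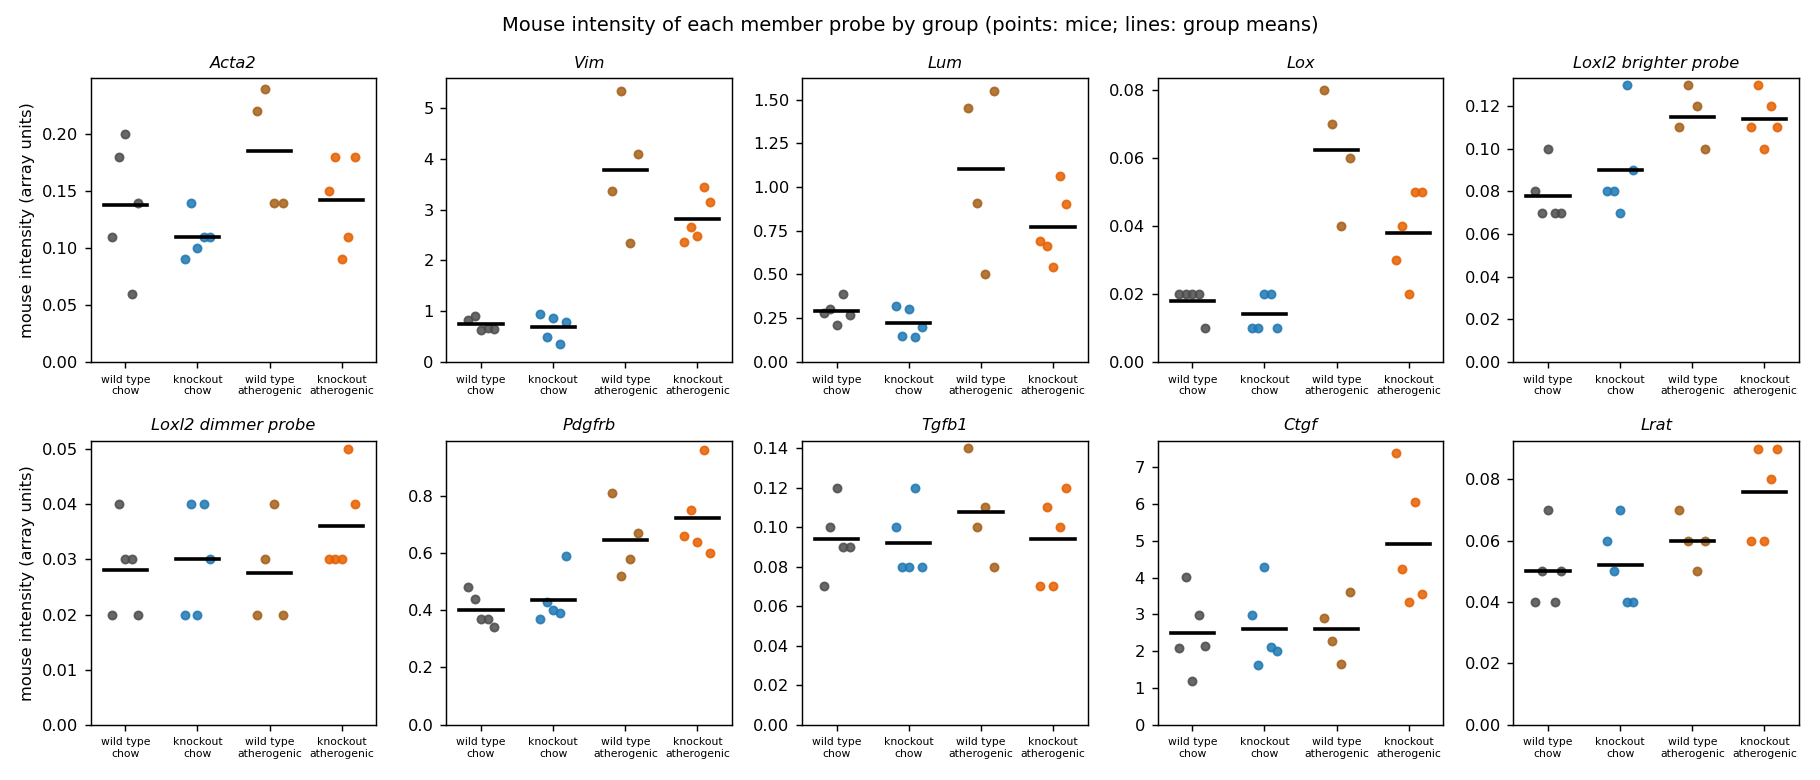
Deposited mouse intensity (array units, linear axis from 0) of each of the 10 member probes, with 1 point per mouse and a line at the mean of each group of 4 or 5 mice. Vim and Lum of every mouse on the atherogenic diet lie above every mouse on chow, while the diets overlap for Acta2, Tgfb1, Ctgf and Lrat.

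Vim encodes vimentin, the intermediate filament protein of mesenchymal cells, leukocytes and endothelium. Its mouse intensity on chow was 0.83, 0.91, 0.63, 0.67 and 0.65 in the wild-type mice A to E, and 0.95, 0.50, 0.87, 0.36 and 0.79 in the knockouts. On the atherogenic diet it was 3.37, 5.34, 2.34 and 4.09 in the wild-type mice A to D, and 2.37, 2.66, 2.49, 3.45 and 3.16 in the knockouts. The lowest mouse on the atherogenic diet, wild-type C, stood above the highest on chow, knockout A, with no overlap in either genotype. After normalisation Vim did not overlap either, and on that scale groups did not overlap for 14.2% of all probes in wild type and 8.4% in knockout. The normalised difference was 2.24 on the log2 scale in wild type (SE 0.25, limma adjusted p = 1.22e-05, higher in 4 of 4 mice) and 1.87 in knockout (SE 0.23, limma adjusted p = 5.75e-05, higher in 5 of 5). The pools gave a separate reading of wild-type RNA: the chow pool averaged 0.684 over 10 arrays and the atherogenic pool 3.81 over 9, a ratio of 5.57, where the median ratio over all probes was 1.11 and 5.02% of probes reached 2. Each pool is 1 sample, so this ratio has no test, and the labels do not say whether the pooled mice are those hybridised singly. By group mean the order was knockout chow (0.694), wild-type chow (0.738), knockout atherogenic (2.83) and wild-type atherogenic (3.79), and the genotypes within a diet did not pass the test. Of 10 other intermediate filament and partner genes, the keratin gene Krt8 rose in wild type (1.14) and none passed in knockout.

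The 250 bases before the start of Vim, and those of Acta2, are shown because the first rose the most of the members and the other, the classical marker of activation, did not pass. They come from RefSeq (GRCm38.p6), at chr2:13574061-13574310 on the plus strand for Vim and chr19:34255374-34255623 on the minus strand for Acta2, written 5′ to 3′ along the gene. Capitals mark motifs found on either strand: a TATA box (TATAAA) in Vim, and in Acta2 a pair of CArG-like boxes, a TEAD site (GGAATG) and a SMAD site (CAGAC).
Vim: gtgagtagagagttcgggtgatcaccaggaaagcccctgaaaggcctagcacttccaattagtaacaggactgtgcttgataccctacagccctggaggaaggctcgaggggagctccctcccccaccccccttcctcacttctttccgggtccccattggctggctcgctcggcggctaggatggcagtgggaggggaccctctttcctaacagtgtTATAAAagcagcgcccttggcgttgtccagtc
Acta2: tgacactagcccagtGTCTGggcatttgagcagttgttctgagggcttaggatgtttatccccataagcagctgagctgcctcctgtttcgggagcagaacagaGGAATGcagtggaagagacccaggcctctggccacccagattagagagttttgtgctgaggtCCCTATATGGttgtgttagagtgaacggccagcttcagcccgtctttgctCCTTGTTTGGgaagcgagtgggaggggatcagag
The CArG box is the binding motif of serum response factor, which drives contractile genes; the boxes of Acta2 begin 84 and 34 bases before the start and each has 1 base of the 6 central ones that departs from the strict motif. This looser form was added after no strict box was seen in the members, and of 27025 RefSeq promoters 8.65% hold the looser and 1.40% the strict form. The TATA box of Vim begins 32 bases before the start, and 13% of promoters hold one. A TEAD site occurs in 12.6% and a SMAD site in 42.1% of promoters, while the AP-1 site (TGANTCA), found in 6.87%, and the GC box (GGGCGG), in 32.9%, were in neither sequence. The promoter table also matched Tgfb1, with 5 GC boxes, and Lrat, with 1 GC box, 1 TEAD site and 1 CArG-like box, so that 4 of the 9 measured members had a sequence. In both printed sequences no motif overlapped another, and a match of letters is not a bound site.

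Lum encodes lumican, a small leucine-rich proteoglycan that regulates the assembly of collagen fibrils. Its intensity on chow was 0.28, 0.30, 0.21, 0.39 and 0.27 in wild type and 0.32, 0.15, 0.30, 0.14 and 0.20 in knockout. Atherogenic mice gave 1.45, 0.91, 0.50 and 1.55 in wild type and 0.69, 0.66, 0.54, 1.06 and 0.90 in knockout. The diets did not overlap, though wild-type mouse C, also lowest for Vim, stood at 0.50 against 0.39 for the highest chow mouse. After normalisation they did not overlap either, as for 14.2% of all probes in wild type and 8.4% in knockout. The normalised log2 difference was 1.63 in wild type (SE 0.32, limma adjusted p = 0.00289) and 1.57 in knockout (SE 0.30, limma adjusted p = 0.00295). The pools differed 2.88-fold in the same direction. Among 11 other small leucine-rich proteoglycans, 2 rose in each genotype and none fell: osteomodulin (Omd, 1.96 in wild type and 3.06 in knockout) and the fibril-binding decorin (Dcn, 0.88 and 0.67). The median over that list was 0.03 in wild type and 0.07 in knockout.

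Lox encodes lysyl oxidase, which oxidises lysines of collagen and elastin so that they cross-link. Its dim probe, brighter than 30.2% of all probes, read 0.02, 0.02, 0.02, 0.02 and 0.01 in chow wild type, and 0.01, 0.01, 0.02, 0.02 and 0.01 in chow knockout. On the atherogenic diet it read 0.08, 0.07, 0.04 and 0.06 in wild type and 0.03, 0.04, 0.02, 0.05 and 0.05 in knockout. The wild-type groups stood apart on this scale and after normalisation, whereas the knockout groups met at 0.02 and stood apart only after normalisation. On the normalised scale groups stood apart for 14.2% of all probes in wild type and 8.4% in knockout. The log2 difference was 1.48 in wild type (SE 0.28, limma adjusted p = 0.00208) and 1.32 in knockout (SE 0.26, limma adjusted p = 0.00403). As a floor, normalised log2 intensities below their 25th percentile were raised to that percentile. The knockout difference was then 0.56 and no longer passed (limma adjusted p = 0.110), while the wild-type call held. Loxl2, a lysyl oxidase with a scavenger receptor domain, did not pass with either probe: the brighter one averaged 0.078 ± 0.013 on chow and 0.115 ± 0.013 on the atherogenic diet in wild type (SD, n = 5 and 4), a normalised log2 difference of 0.30 (limma adjusted p = 0.264). The dimmer probe gave -0.34 in wild type and 0.27 in knockout, so the probes disagreed in sign in wild type. Of 16 other lysyl oxidases and collagen maturation enzymes 2 rose and 1 fell in wild type, and 2 rose in knockout. Adamts2, the procollagen I N-proteinase, rose in both (0.91 and 1.11), Loxl1, which cross-links elastin, rose in wild type (0.78), Pcolce2, an enhancer of procollagen cleavage, rose in knockout (0.67), and the procollagen C-proteinase Bmp1 fell by 0.73 in wild type.

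**Figure D2:**
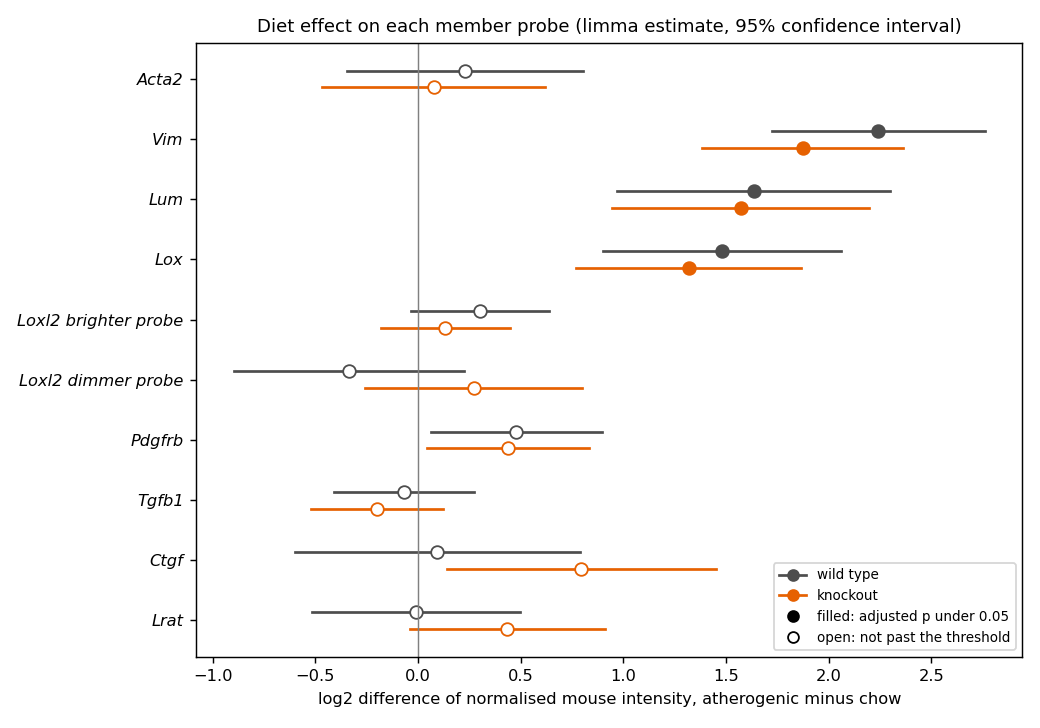
Log2 difference of normalised mouse intensity, atherogenic minus chow, for each member probe in wild type (grey, 4 against 5 mice) and knockout (orange, 5 against 5), with limma's 95% confidence intervals. Filled points, those of Vim, Lum and Lox in both genotypes, passed an adjusted p under 0.05.

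Pdgfrb encodes the receptor through which platelet-derived growth factor drives stellate cell division and migration. Its deposited intensity on chow was 0.48, 0.44, 0.37, 0.37 and 0.34 in wild type and 0.37, 0.43, 0.40, 0.39 and 0.59 in knockout. Under the atherogenic diet it was 0.81, 0.52, 0.58 and 0.67 in wild type and 0.66, 0.75, 0.64, 0.96 and 0.60 in knockout. On this scale the diets did not overlap within a genotype, but the share of all probes without overlap was not computed on it. Arrays of the atherogenic diet were brighter at large: their 75th percentiles lay between 0.42 and 0.51, those of chow arrays between 0.33 and 0.45. After normalisation the diets overlapped, and the log2 difference was 0.48 in wild type (SE 0.20, limma adjusted p = 0.150) and 0.44 in knockout (SE 0.19, limma adjusted p = 0.141). Averaged over the genotypes, a comparison added after the data were seen, it was 0.46 (SE 0.14, limma adjusted p = 0.0228), with 21.7% of all probes called, 10.5% higher and 11.1% lower. In that average 4 of the 10 member probes were called, Vim, Lum, Lox and Pdgfrb. Pdgfrb no longer passed without wild-type atherogenic mouse A (0.40, limma adjusted p = 0.0583) or with each array centred on its median (0.43, limma adjusted p = 0.0689). On the deposited scale, not normalised, it passed in wild type (0.68, limma adjusted p = 0.0328) and in knockout (0.73, limma adjusted p = 0.0142). The pools differed 1.89-fold. Of 6 other PDGF ligands and receptors, none passed in wild type and the ligand Pdgfc rose in knockout (0.98, limma adjusted p = 0.0486).

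Acta2, the actin of contractile myofibroblasts and vascular smooth muscle, did not pass. Its intensity on chow was 0.11, 0.18, 0.20, 0.06 and 0.14 in wild type and 0.09, 0.14, 0.10, 0.11 and 0.11 in knockout. Atherogenic mice gave 0.22, 0.24, 0.14 and 0.14 in wild type and 0.15, 0.18, 0.09, 0.11 and 0.18 in knockout. The groups overlapped widely, with the chow wild-type mice spanning 0.06 to 0.20. The normalised log2 difference was 0.23 in wild type (95% interval -0.35 to 0.80, limma adjusted p = 0.660) and 0.08 in knockout (-0.46 to 0.62, limma adjusted p = 0.880), so a rise of up to 1.75-fold in wild type lies within the interval. The pools differed 1.56-fold, and 15.3% of all probes reached a ratio of 1.5. Of 16 other contractile genes, filamin A (Flna, 0.95) rose and the transcription factor Srf fell by 0.52 in wild type, and none passed in knockout. In wild type 4.62% of all probes were called higher and 2.54% lower. None of 10 vascular smooth muscle markers passed in either genotype.

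Tgfb1, the cytokine that activates stellate cells, read 0.07, 0.10, 0.12, 0.09 and 0.09 in chow wild type and 0.14, 0.10, 0.11 and 0.08 in atherogenic wild type. Knockouts read 0.10, 0.08, 0.08, 0.12 and 0.08 on chow and 0.07, 0.11, 0.07, 0.10 and 0.12 on the atherogenic diet. The groups overlapped in full, and the normalised log2 difference was -0.07 in wild type (95% interval -0.41 to 0.27) and -0.20 in knockout (-0.52 to 0.12), with limma adjusted p = 0.841 and 0.422. Around it, 3 of 26 other TGF-beta signalling genes rose in wild type and 7 in knockout, and none fell. Over all probes 4.62% were called higher in wild type and 5.23% in knockout. The type II receptor Tgfbr2 rose in both (1.13 in wild type, limma adjusted p = 0.0105, and 1.51 in knockout, limma adjusted p = 0.000663), as did the endothelial type I receptor Acvrl1 (0.52 and 0.83). The latent binding protein Ltbp2 rose in wild type (0.82) and the ligand Tgfb2 in knockout (1.11).

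Ctgf, a secreted matricellular protein also known as Ccn2, read 2.07, 4.02, 1.18, 2.99 and 2.15 in chow wild type and 2.91, 2.28, 1.65 and 3.61 in atherogenic wild type. In knockout it read 2.97, 1.62, 4.30, 2.12 and 2.01 on chow and 7.40, 4.22, 3.33, 6.06 and 3.54 on the atherogenic diet. The wild-type diets overlapped, and in knockout 3 of the 5 atherogenic mice, B, C and E, lay below the highest chow mouse. The normalised log2 difference was 0.10 in wild type (95% interval -0.60 to 0.79, limma adjusted p = 0.897) and 0.80 in knockout (0.14 to 1.45, limma adjusted p = 0.110). Leaving out 1 mouse at a time gave knockout differences of 0.62 to 1.00, with limma adjusted p of 0.0483 to 0.264. Ctgf passed in 1 of these 10 fits, the one without chow knockout mouse C (1.00, limma adjusted p = 0.0483). The pools of wild-type liver had a ratio of 0.989 between the diets. Of 11 other CCN family and YAP target genes none passed in wild type and Wwtr1, the coactivator TAZ, rose in knockout (0.62, limma adjusted p = 0.0170).

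Lrat, the esterifying enzyme of vitamin A storage, read 0.04, 0.05, 0.07, 0.04 and 0.05 in chow wild type and 0.07, 0.06, 0.05 and 0.06 in atherogenic wild type. In knockout it read 0.06, 0.05, 0.07, 0.04 and 0.04 on chow and 0.06, 0.09, 0.06, 0.08 and 0.09 on the atherogenic diet. It did not pass in wild type (-0.01, limma adjusted p = 0.986) or in knockout (0.44, limma adjusted p = 0.226), and the groups overlapped in both. Of 19 other retinoid genes none passed in wild type and 3 rose in knockout: the retinol dehydrogenase Rdh10 (0.97), the retinoic acid receptor Rarb (0.74) and the retinoic acid hydroxylase Cyp26a1 (1.23). Of 18 other markers of quiescent stellate cells, 2 rose in each genotype, and the one other call in the list is not reported here. Adamtsl2 rose in both (1.02 and 0.83), the growth factor Hgf in wild type (0.71) and the transcription factor Tcf21 in knockout (0.85). The probe of Hgf was dim, brighter than 37.9% of all probes. The median of the quiescent list was 0.07 in wild type and 0.05 in knockout.

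Some markers of other cells moved with the diet. Over all probes 4.62% were called higher and 2.54% lower in wild type, and 5.23% and 4.37% in knockout. Of 15 macrophage and Kupffer cell genes 12 rose and none fell in each genotype, among them Itgax (3.36 in wild type and 2.33 in knockout), Mpeg1 (2.24 and 1.83), Lyz2 (2.57 in wild type) and Cd5l (3.20 in knockout). The summed normalised intensity of that list lay between 15 and 30.5 in the 10 chow mice and between 59.9 and 109 in the 9 atherogenic mice, without overlap. Within the groups, some mice low in this sum were also low in Vim and Lum: chow knockouts B and D had sums of 15.3 and 15, against 24.6 to 28.5 for the others, and the 2 lowest values of Vim and of Lum in their group, and wild-type atherogenic mouse C had a sum of 70.4, against 96.5 to 109. Wild-type chow mouse C went the other way, with the highest sum of its group (30.5) and the lowest normalised Lum (0.21). Its normalised Vim was 0.65, near the lowest of the group, 0.61 in mouse E. The atherogenic knockouts are not set out here mouse by mouse. The part of these cells in the rise of Vim, Lum and Lox was not tested. Neutrophil genes rose in wild type (6 of 9) and 1 of 9, Lcn2, in knockout, with sums of 0.563 to 5.21 on chow and 1.35 to 25.8 on the atherogenic diet. Among 13 portal fibroblast and mesothelial markers 2 rose in each genotype, Cd34 (1.08 and 0.58) with Gas6 in wild type (0.67) and Wt1 in knockout (2.23). Of 10 bile duct markers Spp1 rose in both (1.27 and 1.26) and Cftr in wild type (1.23), and of 12 sinusoidal endothelial markers Lyve1 rose in wild type (1.05). Among 9 hepatocyte markers Ass1 rose in both (0.48 and 0.83) and Cyp2e1 in knockout (0.78), and of 8 skeletal muscle genes Mb fell by 0.83 in knockout. None of 12 lymphocyte markers passed in either genotype, with chow knockout D far above the other chow mice in their sum.

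**Figure D3:**
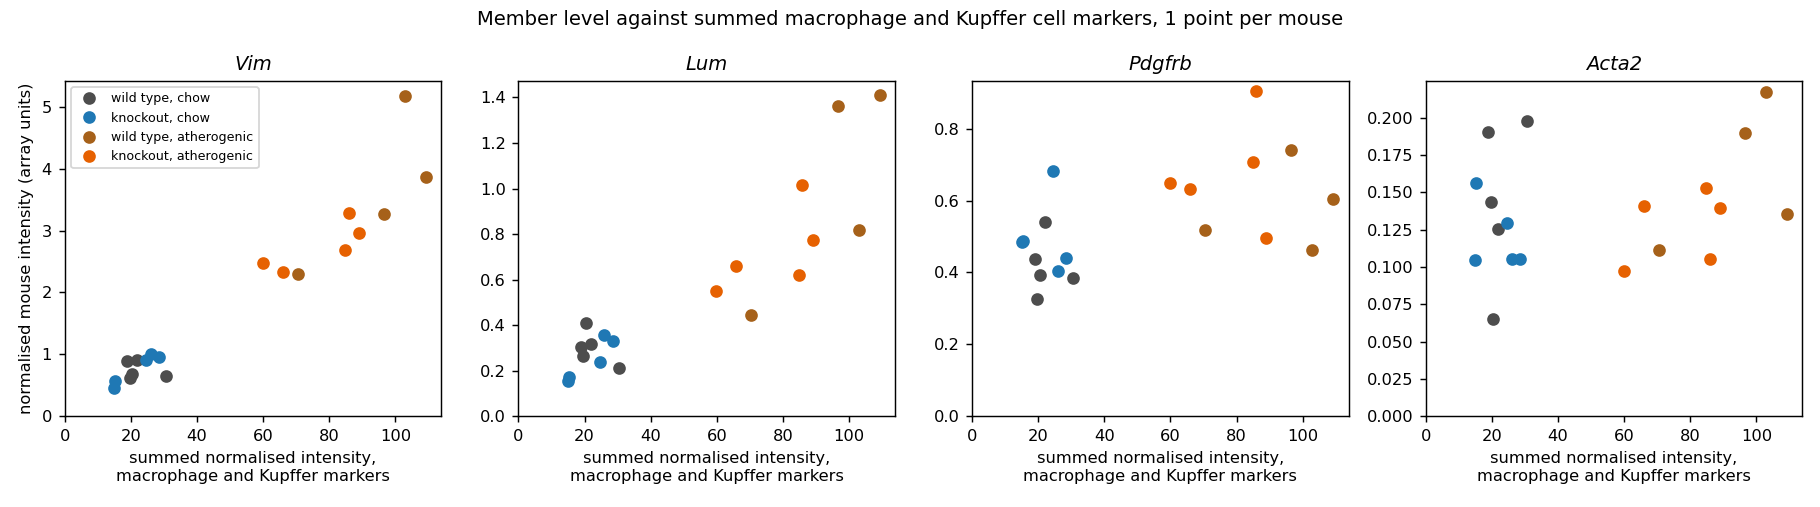
Normalised mouse intensity of Vim, Lum, Pdgfrb and Acta2 (array units) against the summed normalised intensity of macrophage and Kupffer cell markers, with 1 point per mouse coloured by group. Chow mice have sums of at most 30.5 and atherogenic mice of at least 59.9, and Vim and Lum are low in the first and high in the second, while the range of Acta2 overlaps between them.

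Between knockout and wild type, 1 of these genes passed the test, and only when both diets were averaged. On chow no member probe was called between knockout and wild type, where 1.13% of all probes were called, 0.643% higher and 0.484% lower. Among atherogenic mice none was called, where 0.0214% of all probes were called, 0.0129% higher and 0.00857% lower. Averaged over the diets 1 of 10 was called, Lox, which was 1.77-fold lower in knockout, where 6.76% of all probes were called, 3.89% higher and 2.87% lower. Tests are of log2 ratios of mouse to pool, with limma. At an unadjusted p under 0.05, 2 of the 10 member probes passed on chow (Lox and the brighter Loxl2 probe), where 27.4% of all probes did, and 2 on the atherogenic diet (Lox and Ctgf), where 10.7% did. The median of the member probes was 0.09 in the average, against 0.01 over all probes.

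Lox gave log2 ratios of 0, 1, 0, 0 and -1 in chow wild type and -1, -1, -0.58, -0.58 and -1 in chow knockout. Atherogenic mice had ratios of 0.68, 0.81, -0.32 and 0.26 in wild type and -0.74, -0.32, -1, -0.26 and 0 in knockout. All 5 chow knockouts were below 0, as were 4 of the 5 atherogenic ones, but each diet's groups met or overlapped; on chow groups stood apart for 3.39% of all probes. The difference was -0.83 on chow (SE 0.29, limma adjusted p = 0.10), -0.82 on the atherogenic diet (SE 0.31, limma adjusted p = 0.358) and -0.83 in the average (SE 0.21, limma adjusted p = 0.0297). The pool, which is the same RNA within a diet, read 0.01 to 0.02 on the chow arrays of wild type and 0.02 to 0.03 on those of knockouts. With the normalised mouse intensity alone, an alternative added after the data were seen, the average was -0.60 (limma adjusted p = 0.0663). The call was also lost, with the size at -0.75 to -0.84, when any 1 of 6 of the 19 mice was left out (wild-type chow D, knockout chow B, wild-type atherogenic A, B or D, or knockout atherogenic C).

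On the atherogenic diet Ctgf had the largest genotype difference of the members. Its log2 ratios were 0.29, -0.10, -0.43 and 0.40 in wild type and 1.59, 0.91, 0.56, 1.27 and 0.53 in knockout, so that every knockout lay above every wild type; groups did not overlap for 5.11% of all probes. The difference was 0.93, or 1.91-fold (95% interval 1.21 to 3.00), and it did not pass over all probes (limma adjusted p = 0.291). The chow ratios were -0.24, 0.56, -0.98, 0.21 and -0.27 in wild type and 0.18, -0.55, 0.85, 0.03 and -0.18 in knockout, a difference of 0.21 (SE 0.29, limma adjusted p = 0.664) with wide overlap. The difference between these effects was 0.72 (95% interval -0.18 to 1.62, limma adjusted p = 0.784). No member probe was called for that difference, as was no probe in the table (0%, with 1347 of 23344 at an unadjusted p under 0.05).

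**Figure D4:**
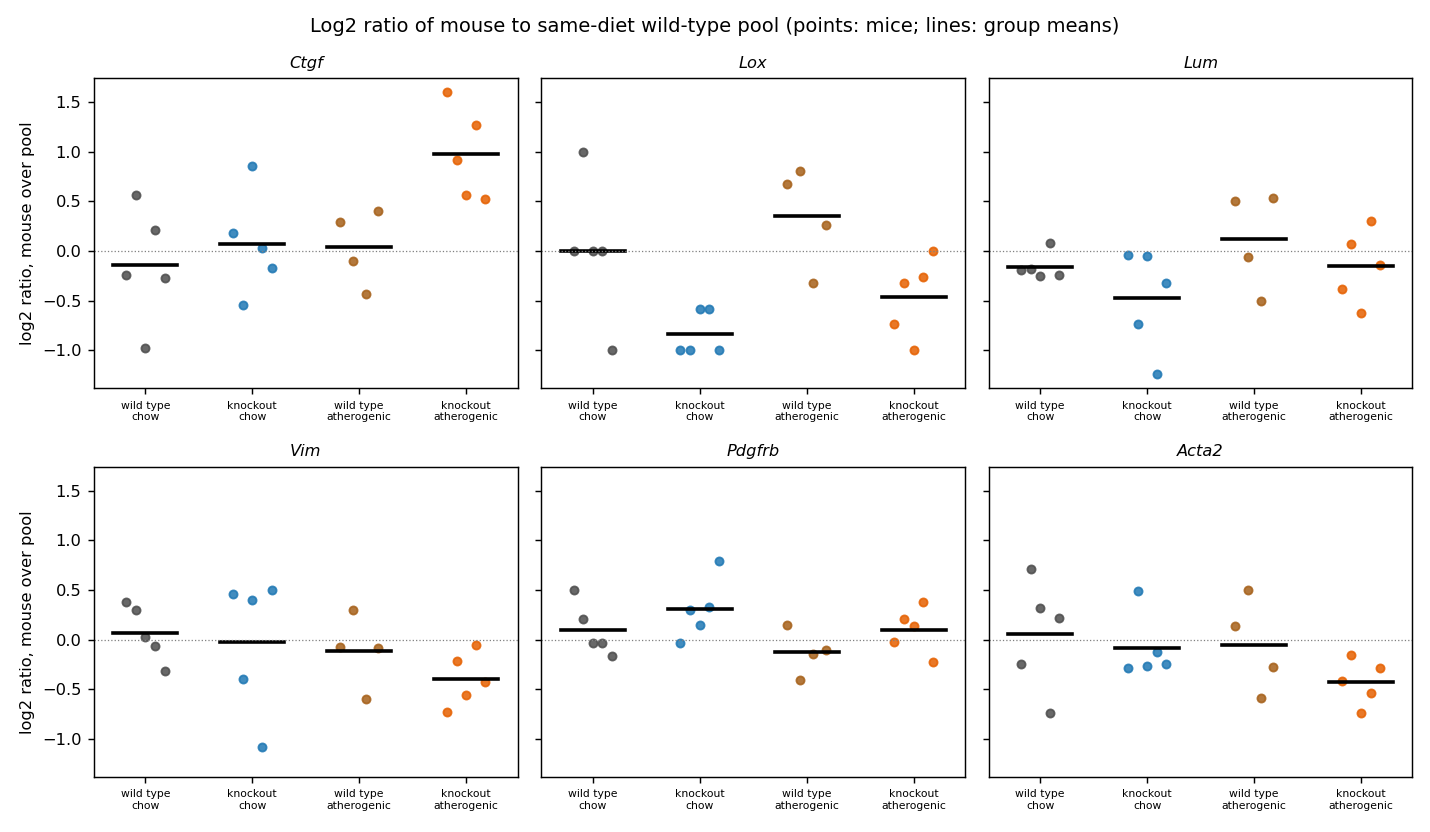
Log2 ratio of mouse to the wild-type pool of its diet for Ctgf, Lox, Lum, Vim, Pdgfrb and Acta2, with 1 point per mouse and a line at each group mean. Ctgf of the 5 atherogenic knockouts lies above all 4 wild-type mice, and Lox of the chow knockouts lies between -1 and -0.58.

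Vim, Lum and Acta2 had lower mean ratios in knockout on both diets and none passed; with quantile-normalised ratios the differences of Vim and Lum on chow were 0.10 and 0.02, and in mouse intensity alone that of Vim was 0.01. Without chow knockout D the chow differences were 0.18 for Vim and -0.13 for Lum. On chow the ratio of Vim averaged 0.06 ± 0.28 in wild type and -0.02 ± 0.70 in knockout, and on the atherogenic diet -0.12 ± 0.37 and -0.40 ± 0.27 (SD, n = 5, 5, 4 and 5). Lum averaged -0.16 ± 0.13 and -0.48 ± 0.51 on chow, and 0.12 ± 0.50 and -0.15 ± 0.36 on the atherogenic diet, a difference averaged over the diets of -0.30 (95% interval -0.66 to 0.07, limma adjusted p = 0.266). Acta2 averaged 0.06 ± 0.56 and -0.09 ± 0.33 on chow, and -0.06 ± 0.47 and -0.43 ± 0.23 on the atherogenic diet, a difference averaged over the diets of -0.26 (-0.63 to 0.12, limma adjusted p = 0.350). Pdgfrb was higher by 0.22 in the average (-0.03 to 0.47, limma adjusted p = 0.234), with group means of 0.09 ± 0.26 and 0.31 ± 0.31 on chow and of -0.13 ± 0.23 and 0.10 ± 0.23 on the atherogenic diet. Each of these intervals included 0.

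The remaining members were read by dim probes. The brighter Loxl2 probe had ratios of 0.19, 0, 0.32, 0.22 and -0.19 in chow wild type and 0.19, 0.42, 0.22, 0.53 and 0.36 in chow knockout, a difference of 0.24 (SE 0.11, limma adjusted p = 0.172). Lrat on the atherogenic diet had ratios of 0.49, 0, -0.26 and 0.26 in wild type and 0.26, 0.58, 0.58, 0.68 and 0.36 in knockout, a difference of 0.37 (SE 0.19, limma adjusted p = 0.488). In both cases the knockouts tended to the higher values and the groups overlapped. Tgfb1 ratios were 0 in all 4 atherogenic wild-type mice and between 0 and 0.22 in the knockouts, and its average difference was 0.13 (SE 0.06, limma adjusted p = 0.170). The dimmer Loxl2 probe differed by 0.06 in the average (limma adjusted p = 0.831).

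**Figure D5:**
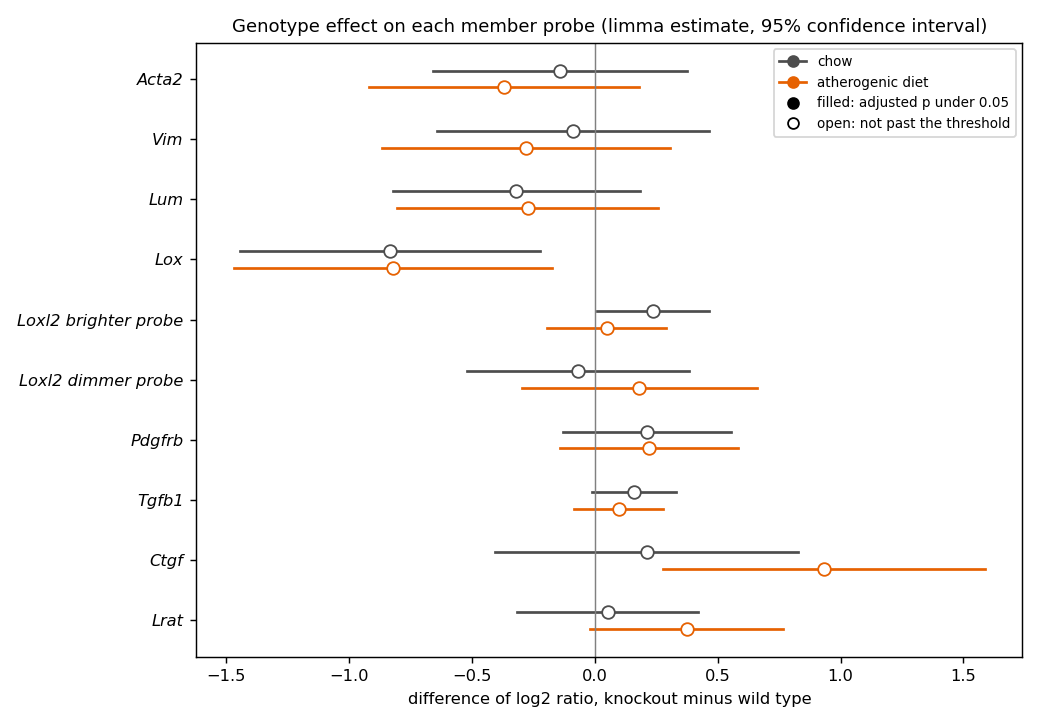
Difference of log2 ratio, knockout minus wild type, for each member probe on chow (grey, 5 against 5 mice) and on the atherogenic diet (orange, 5 against 4), with limma's 95% confidence intervals. No point is filled, since none passed an adjusted p under 0.05 on either diet.

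Of the genes of the other lists few passed by genotype. On chow, where 1.13% of all probes were called, Cyr61, a relative of Ctgf, fell by 0.60 in knockout (limma adjusted p = 0.0406). Cd34 rose by 0.56 and the muscle gene Mylpf fell by 0.67 (limma adjusted p = 0.0347 for both). The probe of Mylpf was dim, brighter than 27.7% of all probes. On the atherogenic diet, where 0.0214% of all probes were called, no gene of the 18 lists passed. In the average of the diets the knockouts were higher in Loxl1 (0.42), in the proteoglycan Podn (0.95), in the TGF-beta corepressor Ski (0.91), in myosin light chain kinase (Mylk, 0.68) and in the quiescent marker Angptl6 (0.38). Synm (0.45), Pnpla3 (0.61), Stab2 (0.79), Cd34 (0.33) and Acta1 (0.96) were also higher, and Dsp (-0.75) and Lcn2 (-0.92) lower, with adjusted p between 0.0250 and 0.0455 for these 12 genes. In this average 6.76% of all probes were called, 3.89% higher and 2.87% lower, and 274 to 3611 probes without 1 mouse. The 12 genes are thus named as a description and not as an excess over all probes. On chow the summed neutrophil markers were 0.563 to 1.22 in wild type and 0.975 to 5.21 in knockout, while none of the 9 genes passed. Their mean log2 ratio to the pool, which carries the genotype, was -0.29 to 0.33 in wild type and 0.54 to 2.01 in knockout, without overlap. On the atherogenic diet this mean ratio overlapped, at -0.60 to 0.44 and -1.52 to 1.74. The mean ratio itself was not tested. Summed macrophage markers overlapped between the genotypes on both diets, at 18.9 to 30.5 and 15 to 28.5 on chow and at 70.4 to 109 and 59.9 to 89.0 on the atherogenic diet. Their part in the difference of Lox was not tested.

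The genes most like each member over the 19 mice are given by Pearson's r of normalised log2 mouse intensity, among probes above the median intensity. The 19 mice fall into chow and atherogenic mice, so for Vim, Lum, Lox and Pdgfrb, which passed between the diets, r holds the diet as well as the differences between mice. Vim was most like Aldh3b1 (0.989), Rab19 (0.980) and Parp8 (0.978). Lum was most like Ppic (0.955), the collagen gene Col6a3 (0.954) and Scd2 (0.952), and Lox was most like Lum (0.939), Scd2 (0.936) and Serpinb6b (0.931). Pdgfrb was most like Adamtsl2 (0.905), Speg (0.889) and the collagen gene Col16a1 (0.874). Adamtsl2 itself rose on the atherogenic diet. Ctgf (Med20 at 0.758, Ankra2 at 0.757 and Nfatc1 at 0.751) and Acta2 (Gm8841 at 0.645, Zdhhc5 at 0.611 and Sphk2 at 0.588) had no gene as close. For the dim members the nearest were Ccdc102a (0.916), Rnf122 (0.871) and Lyl1 (0.855) for Loxl2, Cryba4 (0.841), Mtap2 (0.824) and Vwa2 (0.820) for Tgfb1, and Sfxn2 (0.828), Aifm2 (0.824) and Elf1 (0.822) for Lrat.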

How the data were processed

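Liver RNA of 19 mice was hybridised on 19 arrays of 2 colours. It was extracted with Trizol and amplified in 2 rounds, per the labels' protocols. The submitters' processing notes name Agilent Feature Extraction 8.5.1.1. Per the file headers the deposited table holds 3 columns for each array, which are the intensity in the pool, the intensity in the mouse and a p-value; those p-values were not used. How the authors corrected background and dyes is not stated in the labels. The deposited series matrix holds log10 ratios of mouse to pool (correlation with the table of 1.00, column medians of 0), and was an alternative. Columns were matched to groups, not to single samples; 0 columns belonged to other samples. Replicates are the single mice that the labels name.

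Log2 ratios of mouse to pool were taken from the deposited intensities without a pseudocount. Probes with under 3 values in any group (224 of 23568) were not tested. All 4 groups were fitted together over 23344 probes with limma 3.58.1 in R 4.3.3, at a Benjamini-Hochberg adjusted p under 0.05. Diets were compared on log2 Cy5 intensity after loess and Aquantile normalisation. No pair of arrays held identical values. Arrays sharing a pool correlated at -0.33 at the lowest; ratio directions follow the dyes in the labels. The number of arrays limits the precision.

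The members and the 18 other gene lists were chosen with earlier results of these data known. Named genes are all members, up to 3 passing genes of lowest p per list and comparison, and the 3 genes most like each member; 1 gene of the lists is not reported here. Alternatives were other normalisations, a floor and a filter on dim probes, the replicate number as a block, the arrays of the comparison alone and leaving out each mouse. The fits were tested on simulated data with known changes.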

Additional observations from a re-analysis of the deposited data

Results flagged for a closer look

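Each member's highest and lowest mouse was compared with the rest of its group by Dixon's criterion, in 80 checks, where chance alone flags about 1 in 20, and 6 were past the critical value. In log2 ratio, chow knockout B stood high for Acta2 at 0.49 (next -0.13), chow wild-type C for the dimmer Loxl2 probe at 0.58 (the others 0), chow wild-type D for Lum at 0.076 (next -0.18) and chow wild-type B for Tgfb1 at 0.15 (the others 0). In normalised log2 mouse intensity, wild-type atherogenic mouse C stood low for Lox at -5.19 (next -3.98), and knockout atherogenic mouse E stood low for the brighter Loxl2 probe at -3.58 (next -3.23). The values of Loxl2 (dimmer probe) and Tgfb1 are 1 step of the rounded intensities away from the others.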

How the results depend on the processing

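The calls of Vim and Lum by diet held in both genotypes under all alternatives run and without any 1 mouse, as did that of Lox but for the floor in knockout. The single genotype call, Lox averaged over the diets, did not: the number of member probes called was 0 with quantile-normalised ratios (Lox -0.77, limma adjusted p = 0.0909) and 0 in mouse intensity alone, and 0 to 1 when 1 mouse was left out. Rounding of dim intensities limits Lox, Lrat, Tgfb1, Loxl2 and, to a lesser degree, Acta2, and 1 pool a diet leaves the pools untested. The cause of these changes was not tested.

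Differences that changed sign passed no test in either setting. With median-centred mouse intensities Ctgf by diet in wild type was -0.22; the median of all probes was then -0.18 in wild type and -0.09 in knockout, with 33% and 41.5% of probes higher, against 45.7% and 49.4%. With deposited intensities, not normalised, those medians were 0.17 and 0.10, with 68.7% and 59.1% higher, the brighter Loxl2 probe passed averaged over the genotypes (0.47), Lrat in wild type was 0.28, Tgfb1 was 0.19 in wild type, 0.015 in knockout and 0.10 averaged, and the dimmer Loxl2 probe averaged 0.13. With the mouse channel quantile-normalised Lrat in wild type was 0.010. Quantile-normalised ratios gave 0.10 for Vim and 0.020 for Lum on chow, -0.021 for the dimmer Loxl2 probe in the average, and differences between diets of -0.28 for Lox, 0.040 for the brighter Loxl2 probe, -0.29 for Lum and 0.037 for Tgfb1. The floor, which for ratios raised deposited intensities below 0.02 to that value, gave -0.59 for Lox in that difference. Mouse intensity alone gave -0.027 for Lrat, -0.0060 for Tgfb1 and 0.0060 for Vim on chow, -0.14 for Tgfb1 on the atherogenic diet and -0.072 in the average, and differences between diets of -0.16 for Lox, -0.062 for Lum and -0.041 for Pdgfrb.

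Leaving out 1 mouse at a time, the diet difference in wild type spanned -0.032 to 0.40 for Acta2, -0.12 to 0.29 for Ctgf and -0.11 to 0.19 for Lrat, and that of the dimmer Loxl2 probe, averaged, -0.11 to 0.050. Genotype differences on chow spanned -0.34 to 0.022 for Acta2, -0.16 to 0.091 for the dimmer Loxl2 probe, -0.061 to 0.21 for Lrat and -0.22 to 0.18 for Vim. On the atherogenic diet they spanned -0.0047 to 0.11 for the brighter and -0.014 to 0.38 for the dimmer Loxl2 probe, which spanned -0.041 to 0.15 in the average. The difference between diets spanned -0.24 to 0.26 for Lox, -0.16 to 0.18 for Lum and -0.092 to 0.13 for Pdgfrb.

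Over all probes, 263 were called by genotype on chow, 0 with quantile-normalised ratios, 5 from the chow arrays alone, 59 in mouse intensity alone, 813 with the floor, 987 without the dimmest 25% of probes and 3 to 3854 without 1 mouse. On the atherogenic diet 5 were called, against 3 to 63 under the alternatives and 0 to 20 without 1 mouse. The average gave 1577, against 940 with quantile-normalised ratios and 274 to 3611 without 1 mouse. The diet in knockout gave 2243, against 845 from its arrays alone and 1159 to 3100 without 1 mouse, and in wild type 1671, against 914 to 2296. With the replicate number as a block, on the series matrix, 30 probes were called for chow and 3 for the atherogenic diet, and members called stayed at 0 on each diet, 1 in the average and 0 for the difference; same-numbered mice correlated at -0.43 to -0.03 for chow and -0.06 to 0.10 for the atherogenic diet, with 0 of 5 and 0 of 4 correlating best with their own number. No paired analysis was run for the diet, since chow and atherogenic mice are different animals and the labels name no pairs between them.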
